A study of Mus musculus with 14 samples.

Results

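The broad acetylated domains of untreated adipocytes were the regions of at least 10000 bp in the list of H3AcK27 ChIP-seq regions from unstimulated 3T3-L1 cells. The rule was met by 838 of the 52321 listed regions. The members were chosen by their width in this list, so the widths below are a description. 3T3-L1 is an established mouse preadipocyte line that stores lipid after hormonal differentiation, and the cells had been differentiated for 4 days. They received no treatment (control), forskolin at 10 µM (FSK), tumour necrosis factor alpha (TNFα), or forskolin with TNFα (FSKTNFα), each for 1 h. Chromatin was precipitated with antibodies against CRTC2, the p65 subunit of NF-κB and H3AcK27, which gave 12 lists, and 2 input libraries, from control and FSK cells, served as background. Each antibody and treatment had 1 library of 1 cell line. No spread between samples exists, so no test was run, and intervals cover counting error over domains only.

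The label was checked against marker genes of the cell types the culture could hold. Of 12 adipocyte markers, 4 had a start site in a control H3AcK27 region (Fabp4, Pparg, Lpl and Lipe), whereas Adipoq, Plin1, Cebpa, Cd36, Cidec, Retn, Slc2a4 and Adrb3 had none. All 8 preadipocyte and fibroblast markers lay in a region, and Col3a1 and Prrx1 lay in a broad domain. The counts were 2 of 8 for macrophage (Csf1r, Cd14), 2 of 8 for skeletal muscle (Myog, Tnnt3), 0 of 8 for endothelial and 0 of 8 for neuronal markers. Most defining adipocyte markers thus lacked a listed region, and no adipocyte marker lay in a broad domain. Over all protein-coding genes, 49.6% had a start site in a control region and 2.21% in a broad domain. The adipocyte marker share, 33.3%, was below the first of these, and with 12 markers the distance was not tested. The name adipocytes is the study's own, and these markers alone did not bear it out. H3AcK27 libraries held between 9832884 tags (FSK) and 27966129 tags (TNFα), the CRTC2 libraries between 16438040 and 31807394, and the p65 libraries between 20490261 and 26904732. The share of H3AcK27 tags inside listed regions was 64.9% in control, 48.6% with FSK, 66.7% with TNFα and 50.9% with FSKTNFα.

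Acetylation of K27 on histone H3 marks active promoters and enhancers. Long uninterrupted stretches of it form where many enhancers lie side by side, often around genes that define a cell's identity or state. CRTC2 is a coactivator that enters the nucleus when cAMP rises and binds CREB at cAMP response elements (CREs). p65 is the activating subunit of NF-κB, which TNFα releases from its cytoplasmic inhibitor.

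Several domains held microRNA genes, and their mature sequences are shown because the widest and the second widest domain both lay over such genes. By genome coordinates, 24 of the 1005 microRNA hairpins in the RefSeq table (build GRCm38.p6) lay inside a domain, and 159 lay in any control region. The arms below, read 5′ to 3′, are those of long-known microRNAs and were chosen after the domains had been seen. Capitals mark the seed, bases 2 to 8, which pairs with target transcripts.
mmu-miR-21a-5p: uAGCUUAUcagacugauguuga
mmu-miR-29a-3p: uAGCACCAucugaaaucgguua
mmu-miR-29b-3p: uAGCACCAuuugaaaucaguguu
mmu-miR-125b-5p: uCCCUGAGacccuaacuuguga
mmu-miR-125a-5p: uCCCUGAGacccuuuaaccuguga
mmu-let-7e-5p: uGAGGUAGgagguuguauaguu
mmu-miR-23a-3p: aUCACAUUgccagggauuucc
mmu-miR-27a-3p: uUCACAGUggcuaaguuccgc
mmu-miR-24-3p: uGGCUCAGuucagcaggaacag
mmu-miR-199a-5p: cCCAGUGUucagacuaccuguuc
mmu-miR-214-3p: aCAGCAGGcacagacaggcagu
miR-29a and miR-29b share a seed and lay in 1 domain. miR-125b and miR-125a share another seed and lay in domains on different chromosomes.

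The next sequences come from CRTC2 peaks called with FSK inside domains. They are shown because the palindromic CRE, TGACGTCA, is the element through which CREB recruits CRTC2, and capitals mark it. Coordinates are those of build mm10 (GRCm38), on the plus strand. Of 911 such peaks, 22 held TGACGTCA within their listed bounds, and 5 of the best-scored without annotated UTR bases are printed with up to 40 flanking bases on either side.
CRTC2 peak in the Mef2d domain, chr3:88138401-88138488: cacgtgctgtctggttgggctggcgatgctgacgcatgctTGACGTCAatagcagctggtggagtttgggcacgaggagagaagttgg
CRTC2 peak in a domain near Cebpb, chr2:167777434-167777521: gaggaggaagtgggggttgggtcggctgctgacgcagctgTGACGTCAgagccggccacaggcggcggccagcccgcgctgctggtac
CRTC2 peak in a domain near Ptpn1, chr2:167860667-167860754: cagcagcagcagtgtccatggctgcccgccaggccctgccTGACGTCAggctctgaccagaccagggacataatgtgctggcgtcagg
CRTC2 peak in the Per1 and Vamp2 domain, chr11:69097162-69097249: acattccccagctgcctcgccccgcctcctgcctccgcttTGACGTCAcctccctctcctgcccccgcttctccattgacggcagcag
CRTC2 peak in the Sik1 domain, chr17:31855996-31856045: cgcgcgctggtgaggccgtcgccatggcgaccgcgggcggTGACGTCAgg
The Sik1 peak lay 161 bp from the Sik1 start site and the Per1 peak 1742 bp from a Per1 start site, whereas the peak near Cebpb lay 88550 bp from the Cebpb start site.

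The 4 p65 peaks called with TNFα that overlapped a p65 peak of the FSKTNFα list, lay in a domain and held the NF-κB decamer are shown for the same reason. The decamer was searched on both strands in 2 forms that differ in a middle base, and capitals mark it.
p65 peak in the Tmem176a and Tmem176b domain, chr6:48829745-48829834: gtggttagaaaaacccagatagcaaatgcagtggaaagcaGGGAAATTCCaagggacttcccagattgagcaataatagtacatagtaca
p65 peak in a domain upstream of Cxcl5, chr5:90706435-90706524: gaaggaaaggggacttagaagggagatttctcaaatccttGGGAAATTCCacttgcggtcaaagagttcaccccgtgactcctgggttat
p65 peak in the Ccl2 domain, chr11:82033177-82033266: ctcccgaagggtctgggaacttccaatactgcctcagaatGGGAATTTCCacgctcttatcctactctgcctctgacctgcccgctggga
p65 peak in the Kdm6b domain, chr11:69410852-69410941: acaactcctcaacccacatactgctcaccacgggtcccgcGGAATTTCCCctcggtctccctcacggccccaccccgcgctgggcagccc
The Ccl2 peak lay 2348 bp from the Ccl2 start site and the Kdm6b peak 2791 bp from a Kdm6b start site, while the Cxcl5 peak lay 52918 bp away. A match is a description of the letters, not a measured binding site.

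The domains made up 1.60% of control regions, 10.9% of their bases and 16.8% of their tags. Their median width was 12758 bp (quartiles 11062 and 16137 bp), and the widest spanned 69732 bp. The tag density, in normalised tags per kb, had a median of 77.7 in domains, 64.1 in regions of at least 5000 but under 10000 bp and 27.7 in all regions. Just inside the threshold lay the Irs2 domain (10002 bp) and domains near Emsy (10021 bp) and Atp2c2 (10027 bp). Just outside it lay regions at Id2 (9994 bp) and Ppp3ca (9989 bp), with 1 at Nucks1 between these and the threshold.

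Most of the acetylated length lay within genes and away from their promoters. Introns took 61.4% of domain bases against 49.8% in narrower regions, promoters (from 1000 bp before a start site to 100 bp after it) 6.30% against 11.3%, and intergenic sequence 27.4% against 34.6%. A protein-coding start site lay in 51.1% of domains. These held 1 gene in 369 domains, 2 genes in 49 and at least 3 in 10, for 482 genes in all. Of the 410 domains without a start site, 271 overlapped a gene body and 139 did not, and their median distance to the nearest start site was 24315 bp. In the 369 domains with 1 gene, acetylation reached a median of 10054 bp downstream of the start site and 3049 bp upstream, and the downstream arm was the longer in 295. Arms were measured from the gene's most upstream start site inside the domain, which makes the downstream arm as long as possible. Arms from other start sites were not measured. The median gap from a domain to the nearest other domain was 206214 bp, and 211 (25.2%) were within 20000 bp of another. Chromosome 11 had the most (84), and chromosome 19 had the highest share of its regions (2.35%).

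The widest domains differed in how their width held in the other lists. For a treated list, the tag density of a domain is that of the regions called there that overlapped it, over their whole width, so it can include bases outside the domain and leave out uncalled bases inside it. The widest (chr11:86567659-86637391) covered part of Vmp1, a gene of autophagosome formation, and Mir21a. It was 1 region of 69732 bp in control, 69842 bp with FSK, 70435 bp with TNFα and 70142 bp with FSKTNFα. Its tag densities were 202, 199, 217 and 188 tags per kb in that order, which gave ratios to control of 0.983, 1.07 and 0.933. It held 1, 8, 5 and 6 CRTC2 peaks, and 0, 0, 3 and 2 p65 peaks, which made it the domain with the most FSK CRTC2 peaks. The second (chr6:31055439-31113998), over Mir29a and Mir29b-1 and nearest to Klf14, spanned 58559 bp in control, but its widest overlapping region was 27907 bp with FSK, 36266 bp with TNFα and 27980 bp with FSKTNFα. It was broken into 8, 4 and 10 regions, although its tag density within them was 99.5, 94.1, 98.7 and 86.9 tags per kb across the 4 lists.

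Fkbp5, a glucocorticoid-induced immunophilin gene, lay in the domain that ranked 3 by width (53568 bp). Its tag density was 104 in control, 84.4 with FSK, 74.9 with TNFα and 65.3 with FSKTNFα, and so was lower in all 3 treated lists. Fam129b showed the other direction, with 66.4, 84.3, 104 and 88.8 tags per kb, and its region was 37711 bp in control and 67204 bp with TNFα. The TNFα region also overlapped a second control domain at Fam129b, of 23520 bp, so its width and density cover both. The Rara domain, at the retinoic acid receptor alpha gene, stayed 1 region of 39478 bp with TNFα against 40253 bp in control, but its widest piece was 17780 bp with FSK and 18207 bp with FSKTNFα. Domains at the cytoskeletal genes Sept9 (49895 bp) and Capzb (42154 bp), the deaminase gene Ampd3 (44353 bp) and near the TGFβ coreceptor gene Tgfbr3 (45801 bp) were also among the 10 widest.

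**Figure D1:**
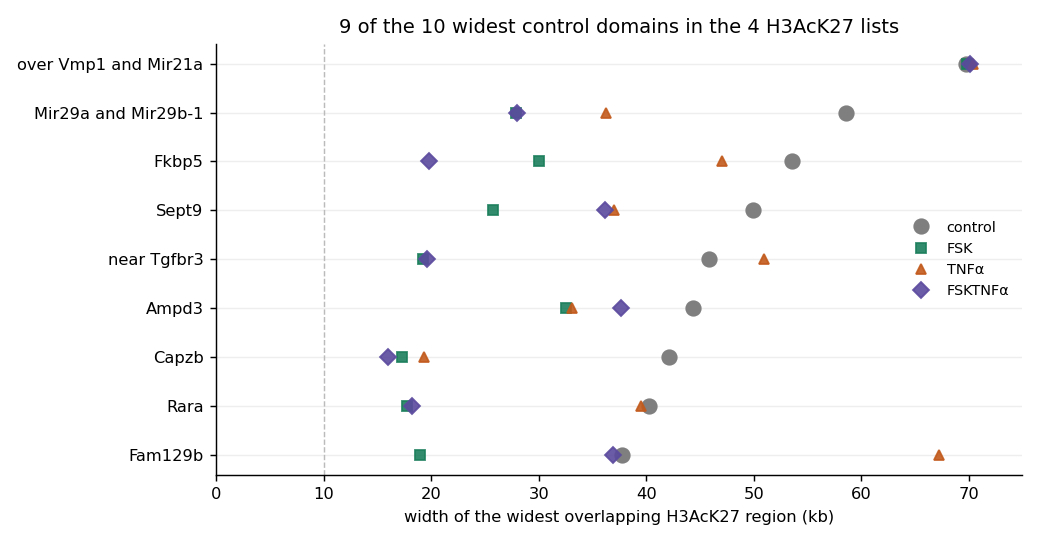
Width in kb (horizontal axis) of 9 of the 10 widest control domains (rows) and of the widest region that overlapped each in the FSK, TNFα and FSKTNFα lists. The dashed line marks 10 kb. The domain over Vmp1 and Mir21a measured 69732 to 70435 bp in the 4 lists, while the domain over Mir29a and Mir29b-1 had no overlapping region above 36266 bp in the treated lists.

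The remaining microRNA domains were narrower. Mir125b-1 lay in a domain of 20882 bp near Ubash3b, and Mir125a, Mir99b and Mirlet7e in a domain of 19170 bp at Spaca6. The cluster of Mir23a, Mir27a and Mir24-2 lay in a domain of 14962 bp, with 125 tags per kb in control, 156 with FSK, 153 with TNFα and 161 with FSKTNFα. It held 1, 3, 6 and 4 CRTC2 peaks and no p65 peak. Mir199a-2 and Mir214 lay in a domain of 12931 bp near Dnm3, with 172, 161, 161 and 135 tags per kb. Density was thus higher in every treated list at the first cluster and lower in every treated list at the second.

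Gene lists were chosen with earlier results of these data known, and their counts are descriptions. Among all 21829 protein-coding genes, 2.21% had a start site in a broad domain and 49.6% in any control region, and of the latter 4.45% lay in a domain. Extracellular matrix and contractile genes had 12 of 40 members in a domain, AP-1 and immediate-early genes 7 of 24, adipogenic regulators 6 of 24, cAMP and CREB targets 6 of 30, NF-κB targets 6 of 30 and insulin signalling genes 3 of 19. Lipid storage genes and adipokines had 2 of 33, and ribosomal protein genes 1 of 26, the nearest to the background. The median width of the region at the start site was 7541 bp for matrix genes, 7207 bp for AP-1 and immediate-early genes and 4019 bp for ribosomal protein genes, beside 2662 bp over all genes with a region. With the threshold at 15000 bp, the counts for matrix genes, AP-1 genes and NF-κB targets were 5, 2 and 3.

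**Figure D2:**
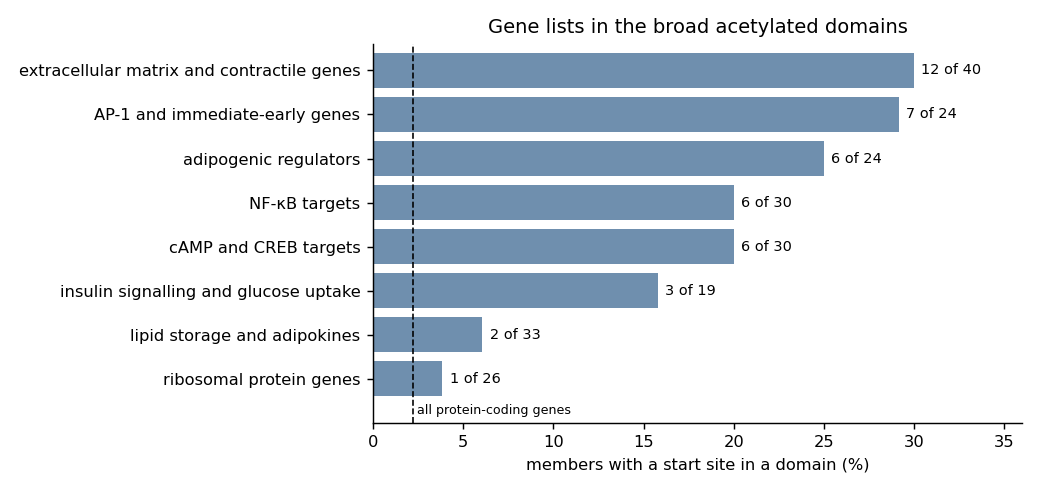
Percent of the members of each gene list with a start site in a broad domain (bars, with counts beside them). The dashed line is the share over all protein-coding genes, 2.21%. The matrix and AP-1 lists lay at the top (12 of 40 and 7 of 24) and the ribosomal protein genes at the bottom (1 of 26).

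The matrix genes in domains encode fibrillar collagens (Col1a2, Col3a1), basement membrane and microfibrillar collagens (Col4a1, Col6a1, Col6a3), small proteoglycans (Bgn, Dcn) and matrix-associated or structural proteins (Sparc, Lox, Tgfbi, Tpm1, Lmna). Bgn had the widest of these domains (29676 bp), with 78.0 tags per kb in control, 49.3 with FSK, 79.5 with TNFα and 46.7 with FSKTNFα. The Bgn density was low in both lists with FSK, and these were the lists with the lower share of tags in regions. Lmna, which encodes the nuclear lamins A and C, had the highest density of the group, at 190 tags per kb in control and 150, 193 and 142 with FSK, TNFα and FSKTNFα. None of the 12 domains held a p65 peak with TNFα alone, beside 15.4% of all domains, while Dcn held 1 with FSK and 1 with FSKTNFα, and Lmna 1 with FSKTNFα. With 12 domains, the distance from that share was not tested. Another domain, 31518 bp from the Dcn start site, held 1 p65 peak with TNFα and 1 with FSKTNFα.

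Adipogenic regulators in domains were Cebpb, an early inducer of adipogenesis, the nuclear receptor genes Rxra and Nr3c1, and Klf9, Nfia and Tle3. Cebpb lay in a domain of 17579 bp with 105, 114, 123 and 120 tags per kb in control, FSK, TNFα and FSKTNFα. Klf9 had 96.9, 80.8, 92.5 and 69.2 tags per kb, and Nfia 68.1, 59.8, 55.2 and 37.7, so that both were lowest with FSKTNFα. Of the later regulators, Pparg lay in a region of 5179 bp and Cebpa had no control region at its start site. The lipid genes in domains were Plin2, a lipid droplet coat protein gene (10416 bp), and the caveolin gene Cav1 (15590 bp), and the insulin signalling genes were Irs2, Akt2 and Pik3r1.

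CRTC2 peaks were called in most domains once cells were treated. A CRTC2 peak overlapped 206 domains in control (24.6%, Wilson 95% interval 21.8 to 27.6), 519 with FSK (61.9%, 58.6 to 65.2), 577 with TNFα (68.9%, 65.6 to 71.9) and 580 with FSKTNFα (69.2%, 66.0 to 72.2). Over all control regions these shares were 5.52%, 16.6%, 21.2% and 19.2%. Wide regions hold more of any feature, and per 100 kb the domains had fewer CRTC2 peaks than narrower regions, 2.07 against 2.80 in control, 7.35 against 9.18 with FSK, 9.36 against 13.2 with TNFα and 8.27 against 10.7 with FSKTNFα. When the 5188 best-scored peaks of each list were used, the shares were 24.6%, 39.9%, 28.8% and 41.2%, so that TNFα then lay below FSK. The CRTC2 lists held 5188, 11749, 19527 and 14171 peaks.

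Promoters and the rest of the sequence differed in this respect, with each peak placed by its centre. Inside promoters, domains had 36 CRTC2 peaks per 100 kb with FSK against 44.9 in narrower regions, and 48.7 against 71.9 with TNFα. Outside promoters the order was the opposite, with 5.42 against 4.56 with FSK, 6.70 against 5.61 with TNFα and 6.33 against 5.82 with FSKTNFα. With FSK, 30.9% of CRTC2 peaks in domains were at promoters, against 55.6% in narrower regions. Peaks in domains stood less far above their surroundings, at a median of 7.83-fold over the local signal with FSK against 11.2-fold in narrower regions, whereas their median fold over input was 9.93 against 9.37. The lists required 4-fold over the surrounding 10000 bp, and what peaks that filter removed inside domains was not tested.

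By list, 171 domains had a CRTC2 peak in all 4 lists, 220 in the 3 treated lists but not in control, and 123 in none. These were 20.4%, 26.3% and 14.7% of domains, beside 3.68%, 6.19% and 70.6% of all control regions. The 5-base CRE core, TGACG, lay within 200 bp windows at 24.7% of the FSK CRTC2 peaks in domains and 28.0% of those in narrower regions. With TNFα the shares were 12.3% and 19.5%. The AP-1 sequences TGAGTCA and TGACTCA, which bind Fos and Jun proteins, lay at 19.4% of FSK CRTC2 peaks in domains against 11.9% in narrower regions, at 9.04% against 5.44% with TNFα, and at 21.3% against 14.1% with FSKTNFα. All motifs were searched on both strands. TGACG is part of TGACGTCA, and in whole domains it was found in 97.1% and TGACGTCA in 10.4%, against 42.4% and 2.07% of the shorter, narrower regions. Per 100 kb, domains held 0.758 TGACGTCA matches and narrower regions 1.11. The AP-1 sequences were also sparser per length in whole domains, at 26.3 against 32.9 matches per 100 kb.

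**Figure D3:**
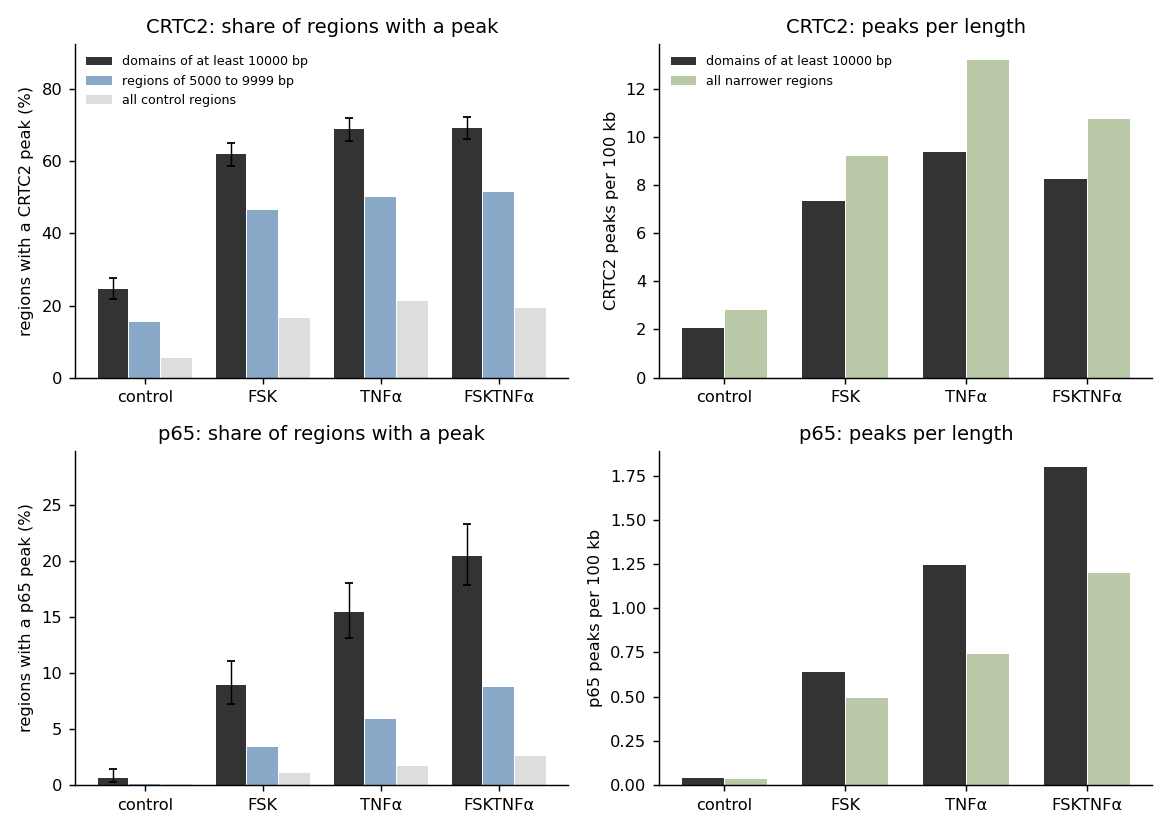
Left panels, percent of regions with at least 1 CRTC2 (top) or p65 (bottom) peak in each treatment, for domains (Wilson 95% intervals), regions of at least 5000 but under 10000 bp and all control regions. Right panels, peaks per 100 kb in domains and in narrower regions. CRTC2 peaks were sparser per length in domains in all 4 lists (for example 7.35 against 9.18 with FSK), and p65 peaks were denser (1.24 against 0.743 with TNFα).

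Domains with the best-scored CRTC2 peaks of a treated list included those at Junb, Mef2d, Txnip and Ddit3 with Mbd6, and those near Cebpb, Ptpn1 and Jun. At Junb, an AP-1 gene induced within minutes of many stimuli, the peak had 44.5 normalised tags in control, 97.9 with FSK, 152 with TNFα and 90.9 with FSKTNFα. The Junb peak was thus already listed without treatment, with fewer tags than in any treated list. In the domain of 32604 bp near Cebpb, the peak printed above had 97.3 tags with FSK and 112 with FSKTNFα, and a p65 peak lay beside it in all 4 lists, with 10.6 tags in control, 22.5 with FSK, 27.9 with TNFα and 45.4 with FSKTNFα. Mef2d, a MADS-box factor gene, had 85.8 tags with FSK and 77.7 with FSKTNFα.

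The 6 cAMP targets in domains (Sik1, Per1, Nfil3, Dusp1, Junb and Irs2) each had a CRTC2 peak in the FSK list, and Per1, Dusp1, Junb and Irs2 also had one in control. Over all domains the shares were 61.9% with FSK and 24.6% in control. Sik1, a salt-inducible kinase gene and CREB target, lay in a domain of 32820 bp with 0, 3, 3 and 4 CRTC2 peaks and 0, 0, 3 and 4 p65 peaks in control, FSK, TNFα and FSKTNFα. Its density was 96.9, 104, 115 and 113 tags per kb. Per1, a clock gene with CREs, had 115, 183, 116 and 142 tags per kb, and Nfil3, a bZIP repressor gene, had 77.0, 132, 87.8 and 128. At both the FSK and FSKTNFα values were the higher ones and the TNFα value was close to control. The widest overlapping regions were 18083, 10108, 18218 and 20609 bp at Per1 and 15929, 14299, 17323 and 15111 bp at Nfil3. At Sik1 they were 32820, 17974, 34019 and 17787 bp. The part of the called length in these densities was not tested. The phosphatase gene Dusp1 had 169, 193, 174 and 188 tags per kb. Sik2, the kinase gene of the study, lay outside the domains with a control region of 2594 bp.

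p65 peaks were rarer and were found in domains more often per length. A p65 peak overlapped 5 domains in control (0.597%, 0.255 to 1.39), 75 with FSK (8.95%, 7.2 to 11.1), 129 with TNFα (15.4%, 13.1 to 17.99) and 171 with FSKTNFα (20.4%, 17.8 to 23.3). Over all control regions the shares were 0.0726%, 1.09%, 1.65% and 2.58%. Per 100 kb, domains had 0.637 p65 peaks with FSK, 1.24 with TNFα and 1.80 with FSKTNFα, against 0.490, 0.743 and 1.199 in narrower regions. Regions of at least 5000 but under 10000 bp had 0.513, 0.91 and 1.39, also above all narrower regions together. A higher rate was thus not particular to the domains. With the 214 best-scored peaks of each list, the shares were 0.597%, 1.07%, 4.53% and 4.30%, so FSKTNFα was not above TNFα at equal list size. Of the p65 peaks that ranked 100 or better by score, 5 lay in domains in control, 4 with FSK, 37 with TNFα and 19 with FSKTNFα. Peaks tied at the cut were kept, so these sets can exceed 100 peaks and differ in size. The 5 in control were all of the control p65 peaks in domains. Of the whole p65 lists, 2.34%, 2.66%, 6.41% and 5.28% of peaks lay in domains in control, FSK, TNFα and FSKTNFα.

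Most p65 peaks in domains lay away from promoters. Of the peaks whose centre lay in a domain, 9 of 154 with TNFα and 16 of 221 with FSKTNFα were inside a promoter. The NF-κB decamer lay at 4.55% of TNFα p65 peaks in domains and 4.24% of those in narrower regions, and the AP-1 sequences at 19.5% and 15.5%. The decamer was found in 7.40% of whole domains and 1.13% of the shorter, narrower regions. Per 100 kb the order was the opposite, with 0.629 decamers in domains and 0.670 in narrower regions. Regions of at least 5000 but under 10000 bp held 0.728. A p65 peak was called in 73 domains (8.71%) in both lists with TNFα, beside 0.547% of all control regions. Domains with both a CRTC2 and a p65 peak numbered 1 in control, 59 with FSK, 104 with TNFα and 146 with FSKTNFα. The same count over all control regions was not made, so the part of width in these numbers was not tested. CRTC2 peaks that overlapped a p65 peak numbered 476 with FSKTNFα in the whole list, and 92 of these (19.3%) lay in domains. Of all FSKTNFα peaks, 7.23% for CRTC2 and 5.28% for p65 lay in domains.

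Of 30 NF-κB target genes, Birc2, Cxcl5, Ccl2, Csf1, Tnip1 and Bcl3 had a start site in a domain, and each of these 6 domains held a p65 peak with TNFα and with FSKTNFα and none in control. The shares over all domains were 15.4% with TNFα, 20.4% with FSKTNFα and 0.597% in control, and over all control regions 1.65%, 2.58% and 0.0726%. Birc2, which encodes the apoptosis inhibitor cIAP1, had 62.5 tags per kb in control, 114 with FSK, 126 with TNFα and 144 with FSKTNFα. It was among the 5 highest density ratios with TNFα (2.01) and the highest with FSKTNFα (2.30). Csf1, the macrophage growth factor gene, lay in a domain of 31731 bp with 0, 0, 4 and 1 p65 peaks and densities of 113, 94.9, 136 and 113. Tnip1, an inhibitor of NF-κB signalling, had 99.1, 89.0, 135 and 117 tags per kb, and Bcl3, an atypical IκB gene, had 113, 138, 143 and 164. At Csf1 and Tnip1 the TNFα value was the highest of the 4 and the FSK value the lowest.

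Chemokine genes lay in or beside several domains. Ccl2, the monocyte chemoattractant gene, lay in a domain of 11657 bp with 96.4 tags per kb in control, 84.9 with FSK, 148 with TNFα and 129 with FSKTNFα, and a second domain of 13380 bp lay 18007 bp upstream of it. The upstream domain had 88.3, 73.2, 125 and 89.5 tags per kb and 0, 0, 3 and 2 p65 peaks. In the TNFα list it belonged to a region of 20871 bp, which also reached the next control region. Thus both Ccl2 domains were highest with TNFα and lowest with FSK.

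Cxcl5, a neutrophil chemokine gene, lay in a domain of 17248 bp with 106, 143, 140 and 134 tags per kb and 0, 1, 2 and 3 p65 peaks. The domain 49849 bp upstream (chr5:90698631-90709529) had 80.2, 86.2, 113 and 119 tags per kb, with 2 p65 peaks with TNFα and 2 with FSKTNFα, and with FSKTNFα it was part of a region of 24836 bp. Cxcl1 lay in a control region of 3801 bp, and a domain of 12346 bp ended 5116 bp from its start site. That domain had 92.0 tags per kb in control, 128 with FSK, 155 with TNFα and 159 with FSKTNFα, and held 1 p65 peak with TNFα and 1 with FSKTNFα. Cxcl2 had no control region at its start site and lay 17746 bp from the same domain.

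**Figure D4:**
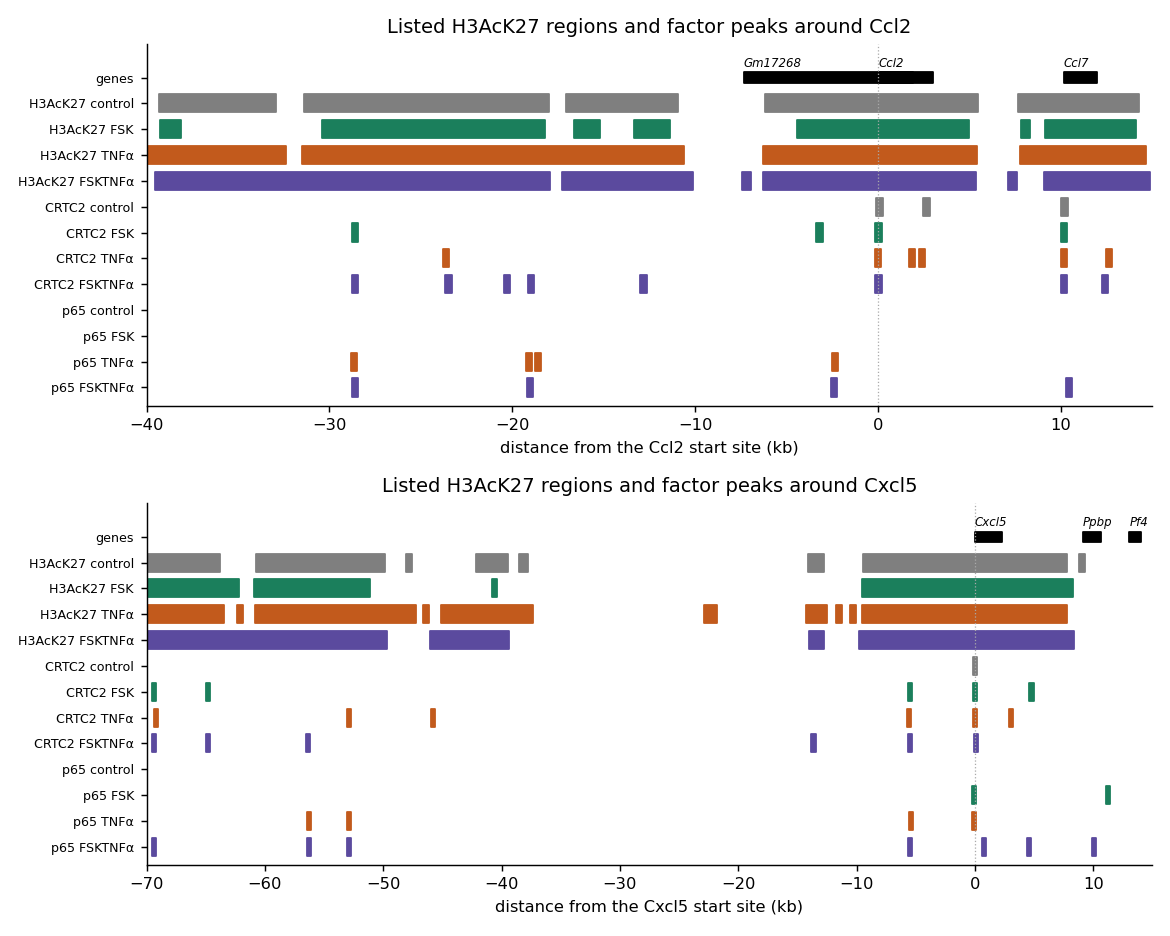
Listed H3AcK27 regions and CRTC2 and p65 peaks (rows, by treatment) around the Ccl2 and Cxcl5 start sites, with distance in kb in the direction of the gene. Factor peaks are drawn wider than their listed width so that they can be seen. No p65 peak was listed in control in either window, and with TNFα p65 peaks lay in the Ccl2 domain (2348 bp from the start site) and in the domains upstream of both genes.

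Lif, an interleukin-6 family cytokine gene, lay in a region of 8294 bp, and a domain of 22044 bp stood 23734 bp from its start site. This domain had 89.8, 130, 134 and 146 tags per kb, 0, 4, 3 and 4 CRTC2 peaks and 0, 0, 2 and 3 p65 peaks. Il6 itself lay in a region of 3979 bp with no domain within 50000 bp. A domain of 10405 bp inside Nfkb1, which encodes the p105 precursor and p50 subunit of NF-κB, had 105, 82.1, 155 and 115 tags per kb. Other domains with p65 peaks among the best-scored in both TNFα lists lay at Tmem176a and Tmem176b, Cp, Kdm6b and near Cebpd, Dcn and Mat2b. The order of the lists varied between them. The domain nearest to Cebpd, 94716 bp away and within Spidr, had 88.8 tags per kb in control, 129 with FSK, 129 with TNFα and 137 with FSKTNFα, whereas Cp, the ceruloplasmin gene, had 221, 115, 235 and 148.

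One domain near Jun (chr4:95092198-95109076) stood apart in its input signal. Its H3AcK27 density was 2047 tags per kb in control, against at most 233 in any other domain, and its input density was 269 tags per kb, against at most 34.3 in any other and a median of 15.8. High density was not confined to this domain. The narrower control region at the Jun start site (6827 bp) had 1790 tags per kb, and narrower regions reached 5281. The domain near Jun held the p65 peak with the highest score of the TNFα list, 5.35-fold over input, and a pair of TNFα CRTC2 peaks that ranked 28 and 29 by score, 7.97-fold and 6.64-fold over input. The part of the high input signal in these scores was not tested.

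All 838 domains overlapped a region in each of the other H3AcK27 lists, but they kept their width in some lists only. A region of at least 10000 bp overlapped 274 domains with FSK (32.7%, 29.6 to 35.95), 656 with TNFα (78.3%, 75.4 to 80.9) and 383 with FSKTNFα (45.7%, 42.4 to 49.1). A single region overlapped 244, 569 and 325 domains, and the median share of a domain's length that was covered was 76.6%, 97.1% and 84.0%. The FSK library was the shallowest, at 9832884 tags, whereas the FSKTNFα library, at 25729060 tags, was close to the control library, at 27601287. Both lists used the FSK input and had the lower shares of tags in regions, and their parts in the difference cannot be told apart from the treatment. Domains were chosen for width in control, so the reverse choice is given beside these shares. Of the regions of at least 10000 bp in the other lists, 312 with FSK, 876 with TNFα and 518 with FSKTNFα, a control domain overlapped 87.2%, 74.4% and 74.1%. In total 223 domains were at least 10000 bp in all 4 lists and 147 in control only.

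The tag density of the regions that overlapped a domain was compared with that of the domain in control. The median ratio was 0.947 with FSK (95% interval of the median over domains 0.926 to 0.965), 1.01 with TNFα (1.00 to 1.03) and 0.903 with FSKTNFα (0.884 to 0.921). Over all regions with an overlap, the medians were 1.06, 1.02 and 0.957. In regions of at least 5000 but under 10000 bp they were 0.976, 1.03 and 0.929. Ratios of at least 1.5-fold up were found in 39 domains with FSK (4.65%), 23 with TNFα (2.75%) and 35 with FSKTNFα (4.18%), beside 13.4%, 6.74% and 8.51% of all regions. Ratios of at least 1.5-fold down were found in 83 (9.90%), 6 (0.716%) and 127 (15.2%), beside 5.91%, 4.36% and 14.7%. Regions of at least 5000 but under 10000 bp had 5.27%, 2.68% and 4.57% up and 8.32%, 1.90% and 15.4% down. The shares up in domains were thus close to those of the next width class. The FSK and FSKTNFα medians were above 1 (1.05 and 1.03) when only regions with at least 8-fold enrichment over input were used. The ratio leaves out what was not called, and the overlapping regions together measured a median of 0.773 of the domain's width with FSK, 0.991 with TNFα and 0.859 with FSKTNFα. Their summed tags had medians of 754, 1113 and 834, against 1055 in control. In the domains covered to at least 90% by regions of at most 1.1 times their width, a choice made after seeing the data, the median ratios were 1.01 with FSK (154 domains, 0.961 to 1.06), 1.01 with TNFα (524, 1.00 to 1.03) and 0.984 with FSKTNFα (225, 0.930 to 1.02).

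Single domains differed more, and the length called behind each ratio is given with it. Birc2 had the highest FSKTNFα ratio (2.30), and its region had nearly the same extent in each list, 13408 bp in control, 13659 bp with TNFα and 13717 bp with FSKTNFα. Its tags numbered 838 in control, 1718 with TNFα and 1973 with FSKTNFα. Akap2, a kinase-anchoring protein gene, had a FSKTNFα ratio of 2.03 over a region of 15042 bp against 16126 bp in control, with 2447 tags against 1291.

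The other high ratios came from regions of another extent. With TNFα, the domain near N4bp1 (2.35) lay partly in a region of 33686 bp, a domain near Tgfbr3 of 13361 bp (2.15) in one of 23583 bp, and the domain near Smad7 (1.99), of 11250 bp, in one of 30182 bp. These ratios therefore included sequence outside the domain. The domain near Col1a1 (1.85) was covered to 63.0% by 4 regions. With FSKTNFα, Trim47 (2.20) was covered to 35.9% by 1 region of 4421 bp, and its tags were 639 against 801 in control. The domain near Tgfbr3 (2.09) was covered to 65.2%, and Dram1 with Gnptab (2.08) to 89.0%.

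Among the lowest ratios, coverage varied as well. With TNFα these were G430095P16Rik, within Nfix (0.558, covered to 71.7%), Ptgs1, the cyclooxygenase-1 gene (0.631, 87.3%), and domains near Trio (0.633, 75.5%), Sfswap (0.638, 98.5%) and Syne3 (0.656, 100%). The domains near Sfswap and Syne3 kept their extent and had 416 tags against 662 and 646 tags against 963 in control. With FSKTNFα the domain near Gas1 (0.284) was covered to 7.77%, and a pair of domains near Mib1 (0.357 and 0.385) to 19.6% and 51.8%. The domain near Mxra7 (0.361) was covered to 83.4%, with 362 tags against 1171, and G430095P16Rik (0.379) to 82.3%.

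Density ratios differed between domains with and without a factor peak of the same treatment. With TNFα, the 129 domains with a p65 peak had a median ratio of 1.09 (1.03 to 1.16), and 87 of them were above 1, while the 709 without had 1.00 (0.989 to 1.02). With FSKTNFα the medians were 1.02 (0.975 to 1.07) in 171 domains with a p65 peak and 0.882 (0.866 to 0.898) in 667 without. With FSK the medians were 0.967 (0.900 to 1.03) and 0.943 (0.923 to 0.964). In the 73 domains with p65 in both TNFα lists, the median ratio was 0.934 with FSK, 1.18 with TNFα and 1.04 with FSKTNFα. The same order was found outside domains, where regions of at least 5000 but under 10000 bp had 1.12 with a p65 peak and 1.02 without in the TNFα list.

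The domains of close extent gave 1.09 (1.03 to 1.17) in 86 with and 1.01 (0.995 to 1.02) in 438 without a p65 peak with TNFα. With FSKTNFα they gave 1.05 (0.991 to 1.16) in 69 and 0.939 (0.898 to 0.987) in 156.

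CRTC2 peaks were examined in the same way. Domains with a CRTC2 peak had a median ratio of 0.993 (0.968 to 1.01) with FSK against 0.874 (0.848 to 0.894) in those without, of 1.03 (1.01 to 1.05) against 0.980 (0.953 to 0.996) with TNFα, and of 0.958 (0.933 to 0.987) against 0.768 (0.743 to 0.809) with FSKTNFα. Domains without a CRTC2 peak were also called over less of their length, with median coverage of 65.4% against 82.2% with FSK, 94.8% against 97.8% with TNFα and 71.6% against 88.0% with FSKTNFα. In domains of close extent the FSK medians were 1.02 (133 domains, 0.959 to 1.099) with and 0.999 (21 domains, 0.891 to 1.09) without a CRTC2 peak, so the FSK medians then lay closer together. With TNFα they were 1.03 (1.01 to 1.06) and 0.981 (0.943 to 1.01), and with FSKTNFα 1.01 (0.961 to 1.05) and 0.821 (29 domains, 0.732 to 0.9497). In the 258 domains without a CRTC2 peak in the FSKTNFα list, 36 had a ratio above 1. When the FSKTNFα density was divided by that of TNFα, which leaves out the control library, the medians were 0.931 with a CRTC2 peak and 0.786 without. Domains with peaks were also denser in control, at medians of 84.2 tags per kb with and 63.0 without a CRTC2 peak of the FSKTNFα list, and the part of that density in the split was not tested.

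**Figure D5:**
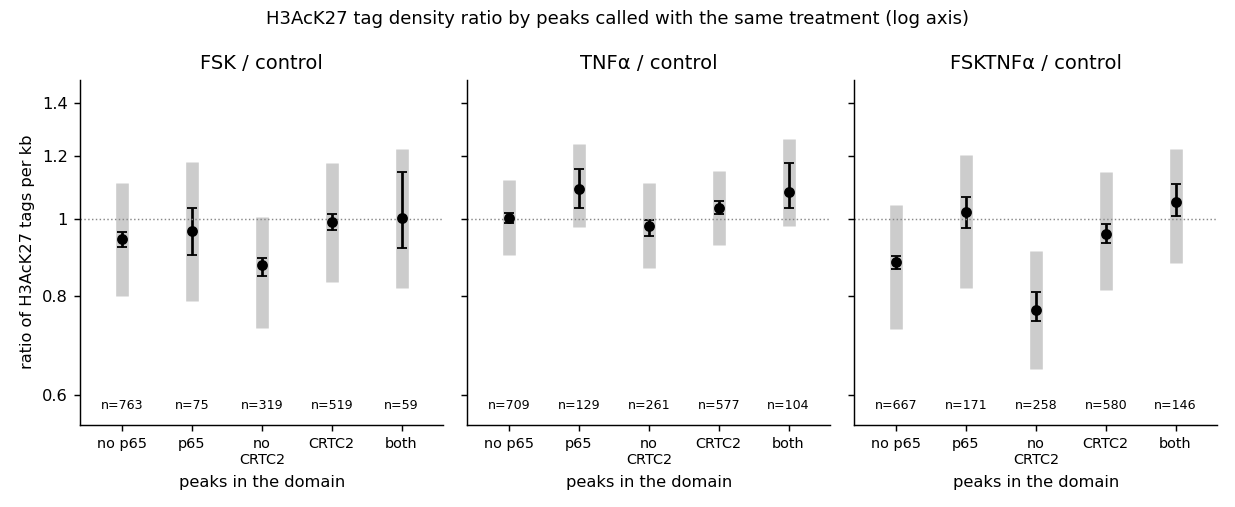
Ratio of H3AcK27 tags per kb to control (vertical log axis) in domains with and without p65 and CRTC2 peaks called in the same treatment. Points are medians, black bars 95% intervals of the median over domains and grey bars the quartiles. The ratio is over regions called separately in each list. In the FSKTNFα panel the median was 0.768 in 258 domains without a CRTC2 peak and 1.05 in 146 domains with both factors.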

How the data were processed

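ChIP-seq peak lists of 3T3-L1 cells were used as deposited. The authors called peaks with HOMER findPeaks against an input library, separately for each library, after alignment for which the submitters' processing notes name STAR and mm10 (versions not given in the sources used here). Per the file headers, factor peaks had a fixed width and H3AcK27 regions were joined from 500 bp windows. The deposited values used were the normalised tag count, a signal scaled to a common library total, the peak score (tags, at most 1 per position), and the fold over input. The deposited p-values were not used. Control and TNFα lists used the control input, and lists with FSK the FSK input. The members and gene lists were chosen with earlier results of these data known.

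Python 3.11.15, pandas 2.3.3, numpy 2.4.6 and scipy 1.17.1 were used. Width was end minus start. Features overlapped by at least 1 bp, and distances to start sites were taken from the centre of a peak or the edge of a domain. Density ratio was the summed normalised tags per kb of all overlapping regions divided by that of the control region, and 1.5-fold counted as changed. Start sites were those of protein-coding transcripts in GENCODE vM21, and sequences came from GRCm38.p6 and RefSeq tables. Domains were named by the genes that start in them, or by the nearest start site. Named domains were the 10 widest, the 5 with most FSK CRTC2 peaks, the 5 with the best-scored CRTC2 peak in each treated list, at most 10 with p65 peaks in both TNFα lists, the 5 highest and 5 lowest density ratios with TNFα and FSKTNFα, gene list members, and Cxcl1, Cxcl2, Cxcl5, Ccl2, Il6, Lif, Sik2 and Cebpa. The overlap code was tested on simulated lists and passed 8 of 8 checks. One of the 10 widest domains is not reported here.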

Additional observations from a re-analysis of the deposited data

Results flagged for a closer look

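A domain near Jun was flagged because its level in the input library, which was not compared between groups, was 268.8 tags per kb there, against a next highest of 34.3 among the domains. Its H3AcK27 list entry held 34543 normalised tags. The density ratio of lists with added TNFα also differed in direction between cells without and with FSK. The median ratio of TNFα to control was 1.01, with 448 of 838 domains above 1, and the median ratio of FSKTNFα to FSK was 0.959 (0.945 to 0.970), with 326 above 1. Over all control regions with a value the medians were 1.02 and 0.918, so the direction was not particular to the domains. The FSK library held 9832884 tags against 25729060 with FSKTNFα, and the part of depth was not tested. The difference in direction was not tested, since each list came from 1 library, and the ratios are over regions called separately in each list.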

How the results depend on the processing

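Of 112 alternative values for 27 results, 58 stayed within the interval or within 1.5 times of the value as reported, and 54 moved. At 8000 bp there were 1491 domains. CRTC2 shares for control, FSK, TNFα and FSKTNFα were 20.9%, 58.5%, 64.1% and 65.1%, p65 shares 12.3% with TNFα and 16.2% with FSKTNFα, shares overlapping a region of that width 36.9% with FSK and 49.6% with FSKTNFα, and list counts 4 for lipid genes and 10 for NF-κB targets. At 15000 bp there were 266 domains. CRTC2 shares were 30.5%, 68.4%, 76.7% and 78.9%, p65 shares 13.5%, 22.2% and 25.2% for FSK, TNFα and FSKTNFα, width shares 25.9% with FSK and 38.7% with FSKTNFα, the FSK density ratio 0.926, and list counts 3 (adipogenic), 1 (lipid), 0 (insulin), 5 (matrix), 3 (NF-κB) and 2 (AP-1). With peaks of at least 8-fold over input, CRTC2 shares were 19.0%, 47.5%, 60.1% and 52.7%, and p65 shares 4.89%, 12.3% and 14.7%. With equal numbers of best-scored peaks, CRTC2 shares in treated lists were 39.9%, 28.8% and 41.2%, and p65 shares 1.07%, 4.53% and 4.30%. In domains at least 8-fold over input, treated CRTC2 shares were 65.9%, 72.6% and 72.8%. Density ratios for FSK, TNFα and FSKTNFα were 1.01, 1.04 and 0.955 with the longest overlap alone, and 1.05, 1.05 and 1.03 with 8-fold regions. In domains whose called extent was close to control, chosen after seeing the data, they were 1.01 with FSK and 0.984 with FSKTNFα. With equal numbers of regions the TNFα width share was 70.4%. Gene bodies gave 6 insulin signalling genes. No paired analysis was possible because each antibody and treatment had 1 library. The FSK H3AcK27 library was the shallowest of its kind, at 9832884 tags, and the part of depth in the width of its regions was not tested. Intervals are over domains only, not over samples. The cause of the moved values was not tested.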
